A study of Homo sapiens with 2 samples.

Results

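Small nucleolar RNA host genes are long non-coding RNA (lncRNA) genes whose introns carry small nucleolar RNAs (snoRNAs). Members were all genes of the deposited table whose symbol is SNHG followed by digits, together with GAS5, ZFAS1, DANCR and EPB41L4A-AS1. The rule found 32 of the 46427 listed genes, and the table gives all 32 the biotype lncRNA. The rule used no measured value, but it was chosen with earlier results of these data known.

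RNA was measured in NK92, an established human natural killer (NK) cell line grown in medium with human serum, to obtain the gene expression signature of PPMX-T003, an inhibitory antibody against transferrin receptor 1, which brings iron into cells. After 18 h of preculture the cells were divided between dishes with fresh medium. The exposed dish received 10 µg/mL of PPMX-T003 and the unexposed dish none, and per the methods both were kept for a further 6 h, although 0 h and 6 h stand in the column names. Each condition has 1 poly(A)-selected, stranded library, so no difference given here has a replicate check, and effects of the antibody, of the dish and of any difference in harvest time cannot be told apart. Counts summed to 46766416 without and 43178462 with the antibody. In bulk RNA, fewer cells that express a gene and less of its RNA per cell cannot be told apart.

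The 13 NK markers summed to 200643 counts in the unexposed and 198867 in the exposed library, none of them was at 0, and NKG7, a granule protein, was the most abundant. Of the T cell markers, CD3D, CD3G, CD8A and CD8B were at 0, CD4 had 4 and 0 counts, and TRAC, the constant segment of the T cell receptor alpha locus, had 1501 and 1312. Of B cell markers, PAX5 had 169 and 78 counts, CD79A had 14 and 12, and MS4A1 was at 0. The 4 myeloid markers summed to 24 and 16 counts, with MPO at 0 and CSF1R the most abundant, and the 3 hepatocyte markers to 4 and 4, all of them from TF. Among the fibroblast markers COL1A1 and COL1A2 were at 0, while PDGFRB had 9081 and 8027 counts. The part of these other markers in the results was not tested.

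A snoRNA guides the chemical modification or cleavage of ribosomal and other RNA. Box C/D snoRNAs guide ribose methylation, H/ACA snoRNAs guide pseudouridylation, and the small Cajal body RNAs (scaRNAs) do the same for spliceosomal RNAs. The host is transcribed and spliced, the snoRNA is trimmed out of the excised intron, and the joined exons are left as a lncRNA. Many of these exonic RNAs have short reading frames and are removed by nonsense-mediated decay (NMD), which needs ongoing translation, so that they accumulate when translation or NMD is blocked. Several begin with a pyrimidine tract after a start cytosine, as ribosomal protein mRNAs do (a 5' terminal oligopyrimidine, or TOP, start), which places their translation under mTOR control.

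Positions of the listed snoRNAs inside the hosts were compared in RefSeq coordinates of GRCh38. Of 570 rows for snoRNAs and scaRNAs, 147 lay inside a member. In GENCODE transcript models, 63 of these were intronic, 1 lay in an exon (SCARNA17 in SNHG22), and the 83 inside SNHG14 could not be placed, since SNHG14 was the only member not matched there. By the most frequent kind of snoRNA inside them, 14 members were box C/D hosts, 12 were H/ACA hosts and 4 were scaRNA hosts, while SNHG27 and SNHG28 held none. GAS5 carried 11 snoRNAs, SNHG1 carried 8 and SNHG14 carried 83, and each other host held between 1 and 4.

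The following snoRNAs are shown because they are the products for which the hosts are named, taken from GENCODE release 29 (GRCh38). In the first 3, of the box C/D kind, capitals mark box C (TGATGA) and box D (CTGA) near the ends. In the last 2, of the H/ACA kind, capitals mark the ACA that stands 3 bases before the end. Each lies in an intron of its host.
SNORD30 of SNHG1, chr11:62853663-62853732, minus strand: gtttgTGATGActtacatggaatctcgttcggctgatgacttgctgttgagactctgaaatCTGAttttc
SNORD49A of SNHG29, chr17:16440036-16440106, plus strand: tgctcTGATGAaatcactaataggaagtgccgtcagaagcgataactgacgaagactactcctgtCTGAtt
SNORD12 of ZFAS1, chr20:49280683-49280772, plus strand: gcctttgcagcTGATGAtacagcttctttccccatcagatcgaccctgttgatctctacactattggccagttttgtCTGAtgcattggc
SNORA24 of SNHG8, chr4:118279190-118279320, plus strand: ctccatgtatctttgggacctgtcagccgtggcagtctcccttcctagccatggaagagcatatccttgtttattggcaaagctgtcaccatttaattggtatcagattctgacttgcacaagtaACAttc
SNORA73A of SNHG3, chr1:28507366-28507571, plus strand: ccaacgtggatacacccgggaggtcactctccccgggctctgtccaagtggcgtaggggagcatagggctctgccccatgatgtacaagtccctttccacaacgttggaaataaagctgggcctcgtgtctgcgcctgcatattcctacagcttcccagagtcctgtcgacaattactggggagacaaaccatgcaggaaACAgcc

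The starts of the hosts are shown because a TOP start is the feature through which their translation is thought to be controlled. Windows around the annotated start, of 300 bases with 250 before it, were in the RefSeq table (GRCh38.p14) for 28 members. A start base C followed by at least 4 bases that are all C or T was found in 7 of the 28 (25%), against 4.07% of all 35116 windows. The same start was found in 9 of 15 ribosomal protein genes that host snoRNAs and in 5 of 18 other protein-coding hosts, counting the listed genes that have a window, and in 0 of 11 lncRNAs that host no snoRNA. Such a match describes the annotated start only, and the start used in NK92 was not measured. For ZFAS1 and SNHG12 the window stands at a start inside the locus, and not at the first base of the locus.

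Below, 50 bases are given per member, 20 before the start and 30 from it on, with the start tract in capitals. The first 6 members have it. GAS5 and SNHG1, shown for comparison, do not in this annotation.
SNHG5, chr6:85678704-85678753, minus strand: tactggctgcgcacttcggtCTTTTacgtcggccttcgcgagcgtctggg
SNHG32, chr6:31834896-31834945, plus strand: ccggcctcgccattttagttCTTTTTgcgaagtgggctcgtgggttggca
ZFAS1, chr20:49278622-49278671, plus strand: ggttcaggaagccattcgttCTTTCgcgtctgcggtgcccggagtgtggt
SNHG19, chr16:2155329-2155378, minus strand: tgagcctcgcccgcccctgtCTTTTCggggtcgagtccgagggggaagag
SNHG12, chr1:28581844-28581893, minus strand: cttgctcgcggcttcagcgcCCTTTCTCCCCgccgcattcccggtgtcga
SNHG4, chr5:139274081-139274130, plus strand: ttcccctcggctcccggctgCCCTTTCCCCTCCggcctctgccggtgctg
GAS5, chr1:173869016-173869065, minus strand: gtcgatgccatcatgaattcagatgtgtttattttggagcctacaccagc
SNHG1, chr11:62855856-62855905, minus strand: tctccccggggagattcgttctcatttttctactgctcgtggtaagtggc

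The seventh member with such a start was SNHG18, which was not detected. The letters CACGTG, read the same on both strands, were in 2 of the 28 windows (SNHG7 and SNHG30; 7.14%, against 7.26% of all windows). The letters TATAAA, on either strand, were in 4 (SNHG1, SNHG7, SNHG11 and SNHG19; 14.3%, against 11.5%).

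The hosts were well expressed as lncRNAs go. At least 20 counts summed over both libraries were reached by 29 of the 32 members, and by 1520 of the 14731 other lncRNA rows. SNHG18, SNHG22 and SNHG27 had 0 counts in both libraries, where the floor of 3 counts corresponds to 0.0641 CPM (reads of a gene relative to all reads, scaled for library size) in the unexposed and 0.0695 CPM in the exposed library. The members together held 58668 of the unexposed counts, or 0.125% (95% Clopper-Pearson interval 0.124% to 0.127%), and 56355 of the exposed counts, or 0.131% (0.129% to 0.132%). These intervals, and all others given here, cover counting error only, and not the way in which overlapping transcripts share reads or the difference between dishes.

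Levels between genes were compared on the deposited TPM, which allow for length and were rounded to whole numbers. SNHG5, which carries SNORD50A and SNORD50B, stood at 484 TPM in the unexposed and 497 TPM in the exposed library. SNHG29, host of SNORD49A, SNORD49B and SNORD65, stood at 440 and 431 TPM. GAS5, first described as a transcript that accumulates in growth-arrested cells, stood at 411 and 457 TPM. SNHG5 was thus highest in both libraries, while SNHG29 and GAS5 changed places between them.

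ZFAS1, which carries the SNORD12 family, followed at 258 and 255 TPM, and SNHG1, the host of SNORD22 and of SNORD25 to SNORD31, at 179 and 182 TPM. In all, 10 members had at least 100 TPM in both libraries, 14 had 10 TPM or more but under 100 in both, and 8 were under 10 TPM in at least 1 of them. SNHG14, with the most snoRNAs, had 5 and 4 TPM over a locus of 595855 bases, and DANCR, with 1, had 159 and 165 TPM. A relation between level and number of snoRNAs was not tested.

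**Figure D1:**
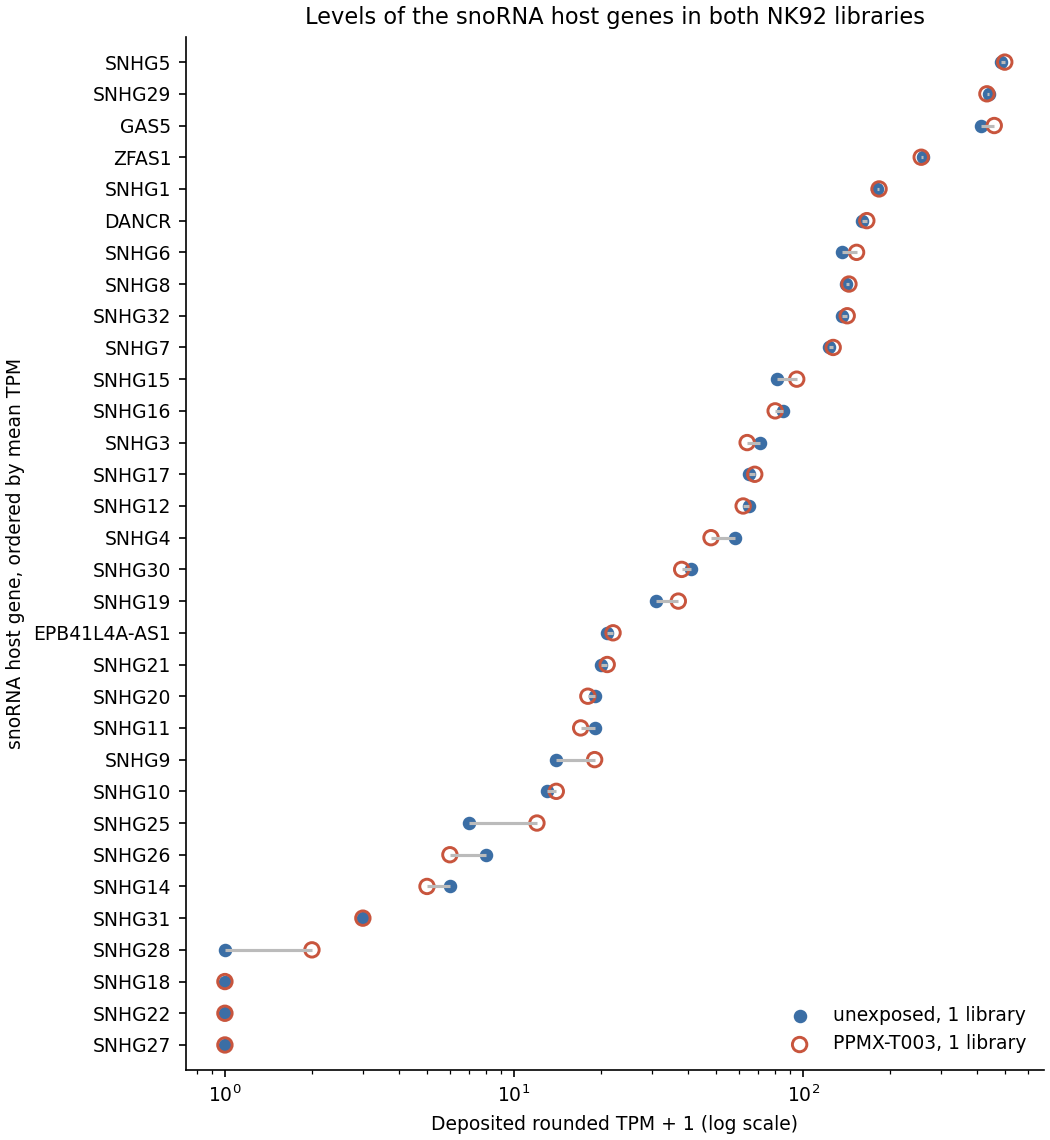
Deposited TPM plus 1 on a log scale for the 32 snoRNA host genes, ordered by mean TPM, with the unexposed library as filled and the PPMX-T003 library as open circles. SNHG5 stands highest at 484 and 497 TPM, and 3 members are at 0 counts in both libraries.

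Changes were read as the log2 ratio of CPM in the exposed over the unexposed library, with TMM scaling (a trimmed mean of log ratios) and a prior count of 2. The 29 members with at least 20 counts were compared with all 13665 genes that passed the same filter. No member was at least 2-fold higher or lower, where 1.27% of all genes were higher and 1.38% lower. A smaller limit was set at a ratio of 5 to 4, which is 0.32 on the log2 scale. Of the 29, 3 rose past it (10.3%, against 9.37% of all genes) and 1 fell past it (3.45%, against 9.48%). All 4 of these had fewer than 200 counts, and of the 25 members with at least 200 counts none passed this limit in either direction, where 3.44% of all genes with at least 200 counts were higher and 4.35% lower. Under upper-quartile scaling 1 of the 25, SNHG19, stood at the limit itself (0.32).

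The members' changes were small and, on scaled counts, leaned upward. Their median log2 fold change was 0.11, against 0.00 over all tested genes, and their central 50% ran from -0.04 to 0.17, against -0.14 to 0.13. On the deposited TPM the median of the members was 0.04. The size of the change regardless of direction had a median of 0.11 among members with at least 200 counts and 0.11 among all genes with as many. The counting interval lay above 0 for 10 of the 29 members (34.5%, against 21.8% of all genes) and below 0 for 4 (13.8%, against 23.9%), and it included 0 for 15. An interval narrows as reads increase, so each such share given here depends on the reads of its genes. With at least 200 counts it lay above 0 in 40% of members and 25.7% of all genes. Below 0 it lay in 12% and 28.6%. The same 10 and the same 4 members were found under each of 3 other scalings between libraries, whereas after a fit on GC content and length, given below, only 5 of the 10 and 1 of the 4 were. After that fit the share of members above 0 was 17.9%, against 18.2% of all genes, and the share below 0 was 7.14%, against 21.7%. By the first share the members were no more often above 0 than other genes, and by the second they were less often below 0. Neither difference was tested.

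**Figure D2:**
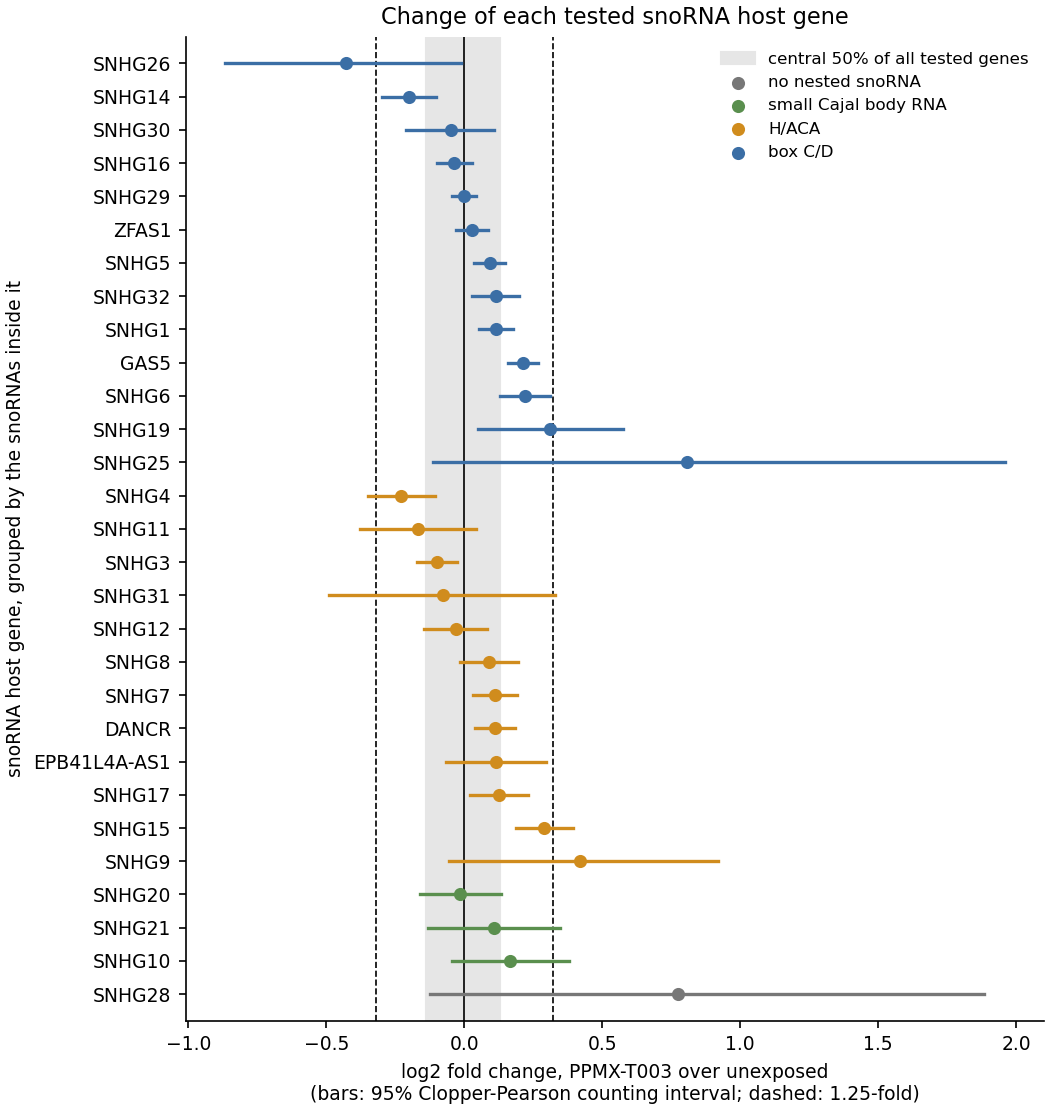
Log2 fold change of the 29 tested host genes, PPMX-T003 over unexposed, grouped and coloured by the snoRNAs inside them, with bars for the 95% Clopper-Pearson counting interval and dashed lines at the limits of -0.32 and 0.32. The grey band is the central 50% of all tested genes (-0.14 to 0.13), and SNHG26, SNHG9, SNHG28 and SNHG25 lie past the dashed lines with wide bars.

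Among the box C/D hosts, 13 of 14 were tested, with a median log2 fold change of 0.09. GAS5, whose introns carry 10 box C/D snoRNAs, had 5308 counts in the unexposed and 5669 in the exposed library, or 113 and 131 CPM, the only one of the 5 members with most counts to have more reads in the smaller, exposed library. Its log2 fold change was 0.21 (interval 0.16 to 0.27), a ratio of 1.16. SNHG6, host of SNORD87, went from 1949 to 2094 counts, with a log2 fold change of 0.22 (0.13 to 0.31). GAS5 was at 0.15 on the deposited TPM, just below its interval. Both are small changes measured with many reads, and both stayed inside the limit of 0.32.

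SNHG1 had 4403 and 4396 counts, which after scaling gave 0.11 (0.05 to 0.18). SNHG32, whose locus lies in the major histocompatibility region and which carries SNORD48 and SNORD52, had 2185 and 2178 counts (0.11, 0.03 to 0.20). SNHG5 had 5119 and 5032 counts (0.09, 0.04 to 0.15). SNHG1 was at 0.02 on the deposited TPM, below its interval. After the fit on GC content and length the interval of SNHG32 included 0, while those of SNHG1 and SNHG5 lay above 0. For these 3 the raw counts were almost equal, and the difference came from the smaller total of the exposed library.

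SNHG19, a short host of SNORD60 with a TOP start, had 227 and 260 counts, and its ratio of 1.24 (log2 fold change 0.31, 0.05 to 0.58) was just inside the limit of 0.32. Under upper-quartile scaling its value reached 0.32, the limit itself. After the fit on GC content and length SNHG19 was at 0.18, with an interval that included 0. SNHG25, host of SNORD104, had only 14 and 24 counts, so that its ratio of 1.75 carried an interval from -0.11 to 1.96 on the log2 scale. It was counted among the 3 that rose, although counting error alone covers no change.

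ZFAS1 had 4949 and 4652 counts, with an interval from -0.03 to 0.09. SNHG29 had 9077 and 8371 counts, the most of any member, and a log2 fold change of 0.00 (-0.04 to 0.04). SNHG16, host of the SNORD1 family, had 4364 and 3922 counts (-0.10 to 0.03). These well-counted hosts differed by less than counting error, as did SNHG30, host of SNORD7, with 683 and 608 counts (-0.21 to 0.11).

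SNHG14 and SNHG26 lay below 0. SNHG14, the long transcript of the Prader-Willi region with tandem copies of SNORD115 and SNORD116, went from 1907 to 1531 counts, or 40.8 to 35.5 CPM (log2 fold change -0.20, -0.30 to -0.10). The 83 snoRNA rows inside it summed to only 40 and 31 counts. Since SNHG14 was not matched in GENCODE, exons shared with other genes could not be read, and the division of its reads is uncertain. SNHG26, host of SNORD93, went from 116 to 79 counts (-0.43, -0.87 to -0.01) and was the member that fell past the limit.

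Of the H/ACA hosts all 12 were tested, with a median log2 fold change of 0.10. SNHG15, host of SNORA9, went from 1448 to 1632 counts, or 30.9 to 37.8 CPM. Its log2 fold change of 0.29 (0.19 to 0.39), a ratio of 1.22, was the highest among H/ACA hosts with at least 200 counts. DANCR, named for its role in holding back differentiation and host of SNORA26, had 3047 and 3037 counts (0.11, 0.04 to 0.19).

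SNHG7, host of the SNORA17 pair, had 2542 and 2530 counts (0.11, 0.03 to 0.19). SNHG17, which carries 4 copies of SNORA71, had 1471 and 1480 (0.13, 0.02 to 0.23). These hosts and DANCR thus had nearly the same counts in both libraries, and most of the difference came from the smaller total of the exposed one. After the fit on GC content and length, given below, the intervals of SNHG7, SNHG17 and DANCR included 0.

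SNHG4, host of SNORA74A and SNORA74D and a neighbour of MATR3, went the other way, from 1255 to 987 counts, or 26.8 to 22.9 CPM (-0.23, -0.35 to -0.11). SNHG3, host of SNORA73A and SNORA73B and a neighbour of RCC1, went from 3251 to 2800 counts (-0.10, -0.17 to -0.02). Both share exon bases on the same strand with that neighbour, so the division of reads between host and neighbour is an estimate.

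The other H/ACA hosts had intervals that included 0. EPB41L4A-AS1, host of SNORA13, had 502 and 501 counts (-0.07 to 0.30), and SNHG8, host of SNORA24, had 1469 and 1440 (-0.02 to 0.19). SNHG12, with SNORA16A, SNORA44, SNORA61 and SNORD99, had 1319 and 1189 (-0.15 to 0.08). SNHG11, which carries SNORA60 and SNORA71E, had 413 and 339 (-0.38 to 0.04), and SNHG31 had 110 and 96 (-0.49 to 0.33). SNHG9, host of SNORA78, had 66 and 82 counts, and it passed the limit with a ratio of 1.34, but its interval from -0.05 to 0.92 included 0.

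The scaRNA hosts differed by less than counting error. SNHG10, host of SCARNA13, had 369 and 382 counts (-0.04 to 0.38), SNHG20, host of SCARNA16, had 793 and 724 (-0.16 to 0.13), and SNHG21, host of SCARNA15, had 297 and 295 (-0.13 to 0.34). SNHG28, with no snoRNA inside, had 15 and 25 counts and a ratio of 1.71, with an interval from -0.13 to 1.88. Its call, like those of SNHG25 and SNHG9, thus rested on few reads of the host row. With the snoRNA rows inside added to their hosts, 13 of 30 members had an interval above 0 (43.3%, against 21.8% of all genes). On the host rows alone it was 10 of 29 (34.5%). The 3 more were SNHG25 (0.77), SNHG9 (0.48) and SNHG22, whose own row is at 0 and which was not among the 29.

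Differences between host classes, or between kinds of start, were not tested. Median log2 fold changes were 0.09 for box C/D, 0.10 for H/ACA and 0.11 for the 3 tested scaRNA hosts. The 6 tested members whose annotated start was counted above as a TOP start had a median of 0.06 (from -0.23 to 0.31). The 19 tested members with a window but no such annotated start, GAS5 and SNHG1 among them, had a median of 0.09 (from -0.43 to 0.77). The start in use was not measured, and the same count found only 9 of 15 ribosomal protein hosts. These groups may thus not separate hosts with a TOP start from those without. SNHG6, SNHG9, SNHG15 and SNHG25 have no window and are in neither group.

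Several loci overlap other genes. In GENCODE, 6 members share exon bases with another gene on the same strand (SNHG3, SNHG4, SNHG20, SNHG21, SNHG28 and SNHG32), and 15 have an exon across from an exon on the opposite strand, among them SNHG29 with LRRC75A, ZFAS1 with ZNFX1 and EPB41L4A-AS1 with EPB41L4A. For SNHG14, which was not matched there, neither could be read. The kit keeps the strand, but whether the counting used it is not given in the sources used here, so reads of such pairs may not be told apart. Without the members that share a same-strand exon, and without SNHG14, 22 members were left with a median of 0.11, and of the 4 below 0 only SNHG26 was still among them.

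Transcript length varied with the change across members. Over the 24 members with at least 200 counts and a matched transcript, the log2 fold change had a Pearson r of -0.54 and a Spearman rho of -0.46 with log2 transcript length, against -0.22 and -0.26 over 10156 genes with as many counts. With transcript GC content the values were 0.07 and 0.08 over the members, against 0.40 and 0.48 over the 10156 genes. These are descriptions across genes of the same pair of libraries, and genes are not independent replicates. The hosts are short, with a median transcript length of 766 nt against 1704 nt, and of average GC content, 49% against 49.1%.

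When the trend of all genes with GC content and length was removed by a robust fit, the median of the members became 0.065 and 5 of them lay above 0 by counting (GAS5, SNHG1, SNHG5, SNHG6 and SNHG15) instead of 10. GAS5 was then at 0.235, SNHG6 at 0.24 and SNHG15 at 0.22, whereas DANCR was at 0.06, SNHG17 at 0.03 and SNHG7 at 0.01. Below 0 by counting were then SNHG4 and SNHG11 (-0.27), while the intervals of SNHG3 (-0.06) and SNHG26 (-0.35) included 0 and SNHG14 had no value. The 5 above made 17.9% of the 28 members with a value, against 18.2% of all genes, and the 2 below made 7.14%, against 21.7%. SNHG9 was at 0.22 and no longer past the limit of 0.32. The part of GC content and length in the members' changes was not tested otherwise.

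Reads on the snoRNA rows inside the hosts were few. snoRNAs carry no poly(A) tail and are shorter than most library fragments, so a poly(A)-selected library is not a measure of the mature snoRNA. All 570 snoRNA and scaRNA rows together had 5527 counts in the unexposed and 5104 in the exposed library (log2 fold change 0.00, -0.05 to 0.06), and the 147 rows inside members had 1486 and 1418 (0.05, -0.06 to 0.16). Of the 570 rows, 217 were at 0 in both libraries and 123 had at least 20 counts, of which 20 were higher past the limit (16.3%, against 9.37% of all genes) and 19 lower (15.4%, against 9.48%), with a median log2 fold change of -0.01. The counting interval of these rows lay above 0 in 2.44% (against 21.8% of all genes) and below 0 in 1.63% (against 23.9%). Most of these rows have few reads, and how far that raised their shares past the limit was not tested.

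The snoRNA rows with most counts were SNORD17 with 426 and 337 counts (-0.22, -0.43 to -0.01), SNORA40 with 265 and 204 (-0.26, -0.53 to 0.01), SNORD47 with 131 and 133 (0.14, -0.22 to 0.50), SNORA67 with 127 and 131 (0.16, -0.20 to 0.53) and SNORA50C with 123 and 112 (-0.02, -0.40 to 0.36). Only SNORD47 of these lies inside a member, GAS5.

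The 11 snoRNA rows inside GAS5 summed to 604 and 570 counts, a sum equal to 11.4% and 10.1% of the count of the separate GAS5 row, with a log2 fold change of 0.03 (-0.13 to 0.20). The GAS5 row itself stood at 0.21 (0.16 to 0.27), just above the upper end of that interval, and the intervals of host and snoRNA sum overlap. Inside SNHG1 the 8 rows summed to 263 and 232 counts (-0.06, -0.32 to 0.20), an interval that holds the 0.11 of the host. In the 16 hosts with at least 20 counts both on their own row and on the snoRNA rows inside them, which leaves out SNHG22, the snoRNA sum was below the host in 12, and the host's value lay inside the interval of the snoRNA sum in 15.

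Besides SNORD17, 4 tested snoRNA rows had an interval outside 0 and are named after their values were seen. Outside the members, SNORD45C had 17 and 5 counts (-1.35, -3.44 to -0.15), the only tested snoRNA row at least 2-fold lower, and SNORD23 had 84 and 108 (0.47, 0.06 to 0.91). SCARNA17, in SNHG22, had 59 and 91 counts (0.72, 0.25 to 1.24), although the SNHG22 row was at 0 in both libraries. SNORD104 had 52 and 81 counts (0.73, 0.24 to 1.29), more than its host SNHG25 in each library. In the SNHG22 and SNHG25 loci the table thus assigned most reads to the small RNA and few or none to the host.

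**Figure D3:**
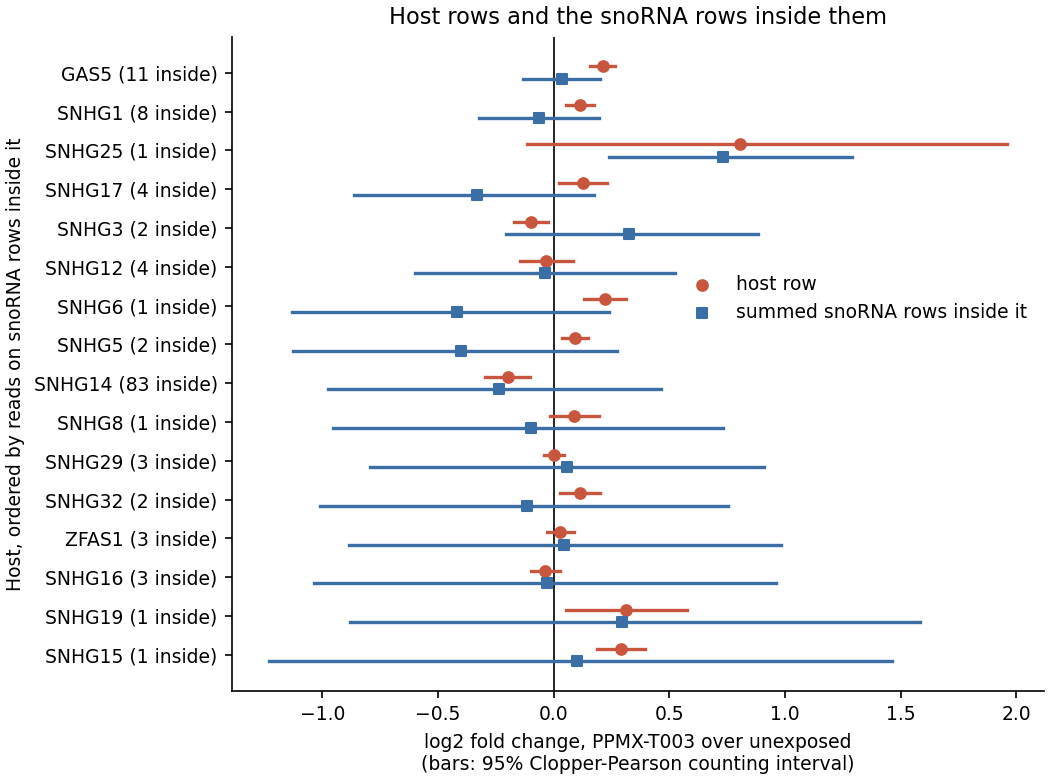
Log2 fold change, PPMX-T003 over unexposed, of 16 host rows (circles) and of the summed snoRNA rows inside each (squares), with 95% Clopper-Pearson counting intervals, for hosts with at least 20 counts on those rows and on their own. SNHG22, at 0 on its own row, is not drawn, and the interval of the snoRNA sum includes 0 in 15 of the 16, the exception being SNHG25.

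Protein-coding genes can host snoRNAs too. On scaled counts all 24 ribosomal protein hosts had a log2 fold change above 0, with a median of 0.09 and an interval above 0 in 22 (91.7%, against 21.8% of all genes), and none passed the limit of 0.32. These genes have many reads and so narrow intervals, and this share does not measure the size of a change. Over all genes with at least 200 counts the interval lay above 0 in 25.7%. RPS2, of the small ribosomal subunit, had 118293 and 127897 counts (0.23, 0.22 to 0.24), RPL37 had 31810 and 33921 (0.21, 0.19 to 0.23) and RPL13 had 31674 and 33433 (0.20, 0.17 to 0.22). After the fit on GC content and length RPS2 was at 0.11 and RPL13 at 0.10, and on the deposited TPM RPL37 was at 0.13. On the deposited TPM 16 of the 24 were higher and 8 lower. The median of the 24 was 0.03 on the deposited TPM and 0.035 after the fit on GC content and length. The 19 other protein-coding hosts had a median of 0.02, which turned to -0.03 on the deposited TPM and to -0.005 after that fit. Their interval lay above 0 in 9 (47.4%, against 21.8% of all genes) and below 0 in 4 (21.1%, against 23.9%). Among these, the chaperone HSPA8 had 220699 and 230174 counts (0.18, 0.17 to 0.19), the ribosome-bound scaffold RACK1 had 51674 and 51873 (0.12, 0.11 to 0.14) and the elongation factor EEF1B2 had 28451 and 27889 (0.09, 0.06 to 0.11). RACK1 was at 0.05 after the fit, and on the deposited TPM HSPA8 was at 0.12 and EEF1B2 at 0.035.

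Other lncRNAs were read in the same way as the hosts. The 1520 other tested lncRNA rows had a median of 0.00, with 353 higher and 352 lower past the limit (23.2% each, against 9.37% and 9.48% of all genes). Shares past the limit depend on reads, and over all genes with at least 200 counts they were 3.44% and 4.35%. The part of low counts in the shares of these lncRNA rows was not tested. Their interval lay above 0 in 161 (10.6%, against 21.8%) and below 0 in 178 (11.7%, against 23.9%). A list of 13 better known lncRNAs without snoRNAs had a median of -0.18 and does not stand for the 1520. The interval lay below 0 in 8 of the 13 (61.5%, against 23.9% of all genes) and above 0 in 1 (7.69%, against 21.8%). MIR155HG, the precursor of miR-155, went from 1331 to 945 counts (-0.38, -0.50 to -0.26) and was the only one to fall past the limit, though it stood at -0.27 after the fit on GC content and length. OIP5-AS1 went from 12305 to 9579 (-0.24, -0.28 to -0.21) and HCP5, in the major histocompatibility region, from 8385 to 6597 (-0.23, -0.28 to -0.18). MIAT, named after its values were seen, was the only one of the 13 to rise past the limit, from 44 to 64 counts. After the fit on GC content and length the median of these 13 was -0.07 and that of the hosts 0.065. No test of the difference between lists was made.

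The genes on which snoRNA assembly and host decay depend gave the following values. Of the 18 core and assembly proteins of snoRNA particles, none passed the limit, and the median was 0.03. Their interval lay above 0 in 9 (50%, against 21.8% of all genes) and below 0 in 3 (16.7%, against 23.9%). On the deposited TPM 9 were higher and 9 lower. ZNHIT3 went from 2685 to 2840 counts (0.20, 0.12 to 0.27), RUVBL2, an ATPase of the assembly complex, from 9101 to 9498 (0.18, 0.14 to 0.22), and RPAP3, which links that complex to HSP90, from 2522 to 1947 (-0.26, -0.34 to -0.17). After the fit on GC content and length RUVBL2 was at 0.06 and RPAP3 at -0.13, and on the deposited TPM RUVBL2 was at 0.315 and ZNHIT3 at 0.12.

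Of the 21 NMD factors, 7 had an interval above 0 (33.3%, against 21.8% of all genes) and 7 below (33.3%, against 23.9%). Their median was 0.00 on scaled counts, and on the deposited TPM 7 were higher, 13 lower and 1 equal. The 5' exonuclease XRN1 went from 4217 to 3108 counts (-0.32, -0.39 to -0.26) and was the only one past the limit, though only just, and it stood at -0.16 after the fit on GC content and length, at -0.31 under upper-quartile scaling and inside the limit on the deposited TPM. The kinase SMG1 went from 24648 to 18306 (-0.31, -0.34 to -0.28), and EIF4A3, of the exon junction complex, from 8005 to 8876 (0.27, 0.22 to 0.31). On the deposited TPM EIF4A3 was at 0.11, while SMG1 was at -0.37 there, past the limit, and at -0.24 after the fit. SMG1 has close copies elsewhere in the genome, so the division of its reads is uncertain.

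Protein-coding targets of NMD, which respond to a block of decay or translation as the hosts do, had a median of 0.00 over 10 genes. Their interval lay above 0 in 3 (30%, against 21.8% of all genes) and below 0 in 1 (10%, against 23.9%). None passed the limit. GADD45B went from 3697 to 4065 counts (0.25, 0.19 to 0.32), UPP1, an enzyme of uridine salvage, from 2641 to 2699 (0.15, 0.07 to 0.23), and ATF4, the transcription factor of the amino acid stress response, from 16297 to 14121 (-0.09, -0.12 to -0.06). After the fit on GC content and length GADD45B was at 0.10, UPP1 at 0.05 and ATF4 at -0.14. On scaled counts the median of the hosts was 0.11 beside 0.00 for these targets, and no host or target with at least 200 counts passed the limit. The host median was smaller on the deposited TPM and after the fit on GC content and length, as given above. On the deposited TPM 3 targets were higher, 5 lower and 2 equal, and the difference between the lists was not tested.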

How the data were processed

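The authors trimmed reads with Trimmomatic 0.38, mapped them to hg38 with HISAT2 2.2.0 and counted them with StringTie 2.1.3b, and also named edgeR 3.17, per the labels and methods. The authors deposited whole read counts per gene, not scaled between libraries, and wrote them with commas inside the digits, which were removed. The deposited FPKM and TPM are whole numbers as the authors rounded them, and each was taken as a score. Because of the commas the count columns were recorded under a general unit, and no count model was planned or fitted.

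Counts were scaled by TMM (trimming 30% by ratio and 5% by level) and turned into log2 CPM with a prior count of 2 in Python 3.11.15 with NumPy 2.4.6, SciPy 1.17.1 and statsmodels 0.14.6, and the code was tested on simulated data. The scaling factors were 1.00 and 0.999. Genes with at least 20 summed counts were kept. Counting error was a 95% Clopper-Pearson interval on the division of a gene's reads between the libraries, turned into a log2 ratio. Genes were matched to GENCODE release 29 by NCBI Gene ID or else symbol, which gave transcript GC content and length for 91.8% of tested genes, as medians over protein-coding transcripts or, without any, over all. For 14 of the snoRNA rows inside GAS5, SNHG1 and SNHG5 no strand was known and that of the host was assumed.

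The members and lists were chosen with earlier results of these data known. Named genes were every member with at least 20 counts, the 3 genes with at least 100 counts of each other list whose interval bound nearest 0 was farthest from it, the 5 snoRNA rows with most counts, and the markers. Alternatives were 3 other scalings, other priors and filters, the deposited TPM, a fit on GC content and length, summing of host and snoRNA rows, and members sharing no exon.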

Additional observations from a re-analysis of the deposited data

How the results depend on the processing

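Under the 11 alternatives the median log2 fold change of the members ran from 0.04 (deposited TPM with a pseudocount of 1) to 0.12 (upper-quartile scaling). Of the 29 members and 23 other genes run under them, none with an interval outside 0 changed sign, and markers and genes named after their values were seen were not run. Many settings leave the value of a single gene as it is by construction. On the deposited TPM, 2 of 29 members and 12 of 23 other named genes left their counting interval, and after the fit on GC content and length 1 of 28 and 11 of 22 did.

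With genes of at least 200 counts, 0 members were higher and 0 lower past the limit of 0.32 on the log2 scale, where 3 and 1 were before, since the 4 that passed have fewer counts. On the deposited TPM, 1 member was at least 2-fold higher, SNHG28, whose rounded TPM went from 0 to 1. After the fit on GC content and length, 5 members had an interval above 0 and 2 below (SNHG4, and SNHG11, which was not among the 4 before), and without members sharing a same-strand exon 1 lay below. With snoRNA rows added to their hosts 13 of 30 lay above (43.3%, against 21.8% of all genes). The cause of the changes with that fit was not tested. SNHG14 has no GENCODE match and so no value under that fit or without members sharing exons, and TPM gives no counting interval. Among all tested genes the filter on low counts moved the share of higher genes past that limit most, from 9.37% to 18.3% with genes of at least 1 count and to 3.44% with genes of at least 200, and the share lower from 9.48% to 17.7% and 4.35%.

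With 1 library per condition there was no paired analysis and no leaving out of a replicate. SNHG9, SNHG25, SNHG26, SNHG28 and SNHG31 have few reads and wide intervals.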
